A study of Mus musculus with 11 samples.

Results

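The genes described here are 56 mouse genes for proteins of the cytosolic ribosome, chosen by name, and the values are the positions and scores of ChIP-seq peaks around their transcription start sites (TSSs). Of the 56 genes, 55 had TSSs in the annotation of the genome build mm9, 36 for the large subunit (Rpl genes) and 19 for the small subunit (Rps genes), among 22367 protein-coding genes in all. The peaks are those of the transcription factors (TFs) ZIC2, OTX2, SOX2, POU5F1 and POU3F1 in feeder-free epiblast stem cells (EpiSCs) of the 129/Sv strain, which are pluripotent cells with the properties of the epiblast after implantation. The EpiSC cultures contained activin (20 ng/ml) together with Fgf2 at 10 ng/ml, and the activin-free cultures, labelled EpiSCA, were kept without activin for the last 18 h before harvest. Each TF was expressed transiently from a pCAGGS vector, fused to the BLRP sequence that the coexpressed enzyme BirA biotinylates, and its chromatin was collected on streptavidin beads, so that the peaks are those of the introduced proteins in a transfected population. There was 1 library for each TF in each culture, and the difference between cultures therefore cannot be told apart from the difference between libraries.

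Ribosomal proteins assemble with ribosomal RNA into the large subunit, which joins amino acids, and the small subunit, which reads the mRNA. Their genes are transcribed strongly in dividing cells from promoters that mostly lie in CpG islands, and their mRNAs typically start with a run of pyrimidines, the 5′ terminal oligopyrimidine (TOP) tract, through which translation follows nutrient supply. Many of them carry small nucleolar RNAs (snoRNAs), guides for the modification of ribosomal RNA, in their introns.

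The promoters of 7 genes are shown because the results below turn on them. Rpl10a had the highest ZIC2 score within 1 kb of a TSS, Rpl4 and Rpl5 had the highest OTX2 scores in EpiSC, in peaks over their gene bodies, Rps6, Rps9 and Rps27 lacked a ZIC2 peak at the promoter, and Rps3 was the only gene with a POU5F1 peak there. Each run of 90 bases has 80 bases before and 10 bases from the RefSeq start, and capitals mark the longest run of C and T that overlaps the 10 bases on either side of the start.
Rpl10a: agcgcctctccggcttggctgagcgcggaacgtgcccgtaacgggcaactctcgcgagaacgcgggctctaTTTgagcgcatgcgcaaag
Rpl4: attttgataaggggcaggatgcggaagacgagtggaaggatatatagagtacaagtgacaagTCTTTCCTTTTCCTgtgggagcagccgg
Rpl5: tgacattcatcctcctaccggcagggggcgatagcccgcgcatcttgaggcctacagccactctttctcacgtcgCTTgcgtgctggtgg
Rps3: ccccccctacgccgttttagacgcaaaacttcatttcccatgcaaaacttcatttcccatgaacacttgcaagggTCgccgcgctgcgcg
Rps6: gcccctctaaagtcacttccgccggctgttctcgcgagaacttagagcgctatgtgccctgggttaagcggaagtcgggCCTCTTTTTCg
Rps9: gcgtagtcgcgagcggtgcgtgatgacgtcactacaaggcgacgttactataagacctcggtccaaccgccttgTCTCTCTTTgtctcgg
Rps27: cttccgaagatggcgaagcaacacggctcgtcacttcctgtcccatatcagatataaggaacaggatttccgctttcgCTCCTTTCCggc
The sequences are from RefSeq (promoter table of GRCm38.p6) and were placed in mm9 by exact match, at chr17:28465430-28465519 (plus strand), chr9:64021114-64021203 (plus strand), chr5:108329467-108329556 (plus strand), chr7:106632210-106632299 (minus strand), chr4:86503262-86503351 (minus strand), chr7:3655563-3655652 (plus strand) and chr3:90017561-90017650 (minus strand). Pyrimidine runs of 8 or more bases were marked for Rpl4, Rps6, Rps9 and Rps27 but not for Rpl10a, Rpl5 or Rps3. The runs of Rps6, Rps9 and Rps27 crossed the start, whereas that of Rpl4 lay wholly before it.

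The 10 lists held 62457 to 126908 peaks. The POU5F1 list was the shortest in EpiSC (62457 peaks) and the longest in the activin-free culture (126908 peaks). The score of a peak is derived by MACS from the logarithm of its p-value, no listed score was under 50, and the depth of the libraries is unknown. Each TF had a peak with a score of 3100 over the coding exons of its own gene in both cultures, where the introduced cDNA cannot be told apart from the genome. That score was not limited to own genes. ZIC2 peaks also had it over coding exons of Pou3f1 in both cultures, of Sox2 in EpiSC and of Pou5f1 in the activin-free culture.

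ZIC2 and OTX2 were the TFs with peaks at ribosomal protein genes, and SOX2, POU5F1 and POU3F1 had few. A peak was assigned to a gene when its midpoint was within 1 kb of one of its TSSs. In EpiSC, 49 of the 55 genes had a ZIC2 peak (89.1%, 95% Wilson interval 78.2 to 94.9%), compared with 67.6% of all protein-coding genes. OTX2 peaks were present at 27 genes (49.1%, 36.4 to 61.9%), compared with 29.1% of all genes. SOX2 peaks were found at 5 genes (9.09%, 3.95 to 19.6%; all genes 8.05%), a POU5F1 peak at 1 gene (1.82%, 0.322 to 9.61%; all genes 4.74%) and a POU3F1 peak at none of the 55 genes (0 to 6.53%; all genes 5.58%). The intervals cover counting error only, and neighboring genes or peaks are not replicates.

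The order of the TFs was alike in the activin-free culture. There, 47 genes had a ZIC2 peak (85.5%, 73.8 to 92.4%), compared with 66.6% of all genes, and 27 had an OTX2 peak (49.1%, 36.4 to 61.9%), compared with 24.2%. SOX2 peaks lay at 9 genes (16.4%, 8.86 to 28.3%), compared with 12.8% of all genes. POU5F1 and POU3F1 each had a peak at 1 gene (1.82%, 0.322 to 9.61%), compared with 9.09% and 6.21% of all genes, respectively. For ZIC2 and OTX2, the share over all genes lay below the interval of the ribosomal protein genes in both cultures, and for SOX2, POU5F1 and POU3F1 it lay inside.

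**Figure D1:**
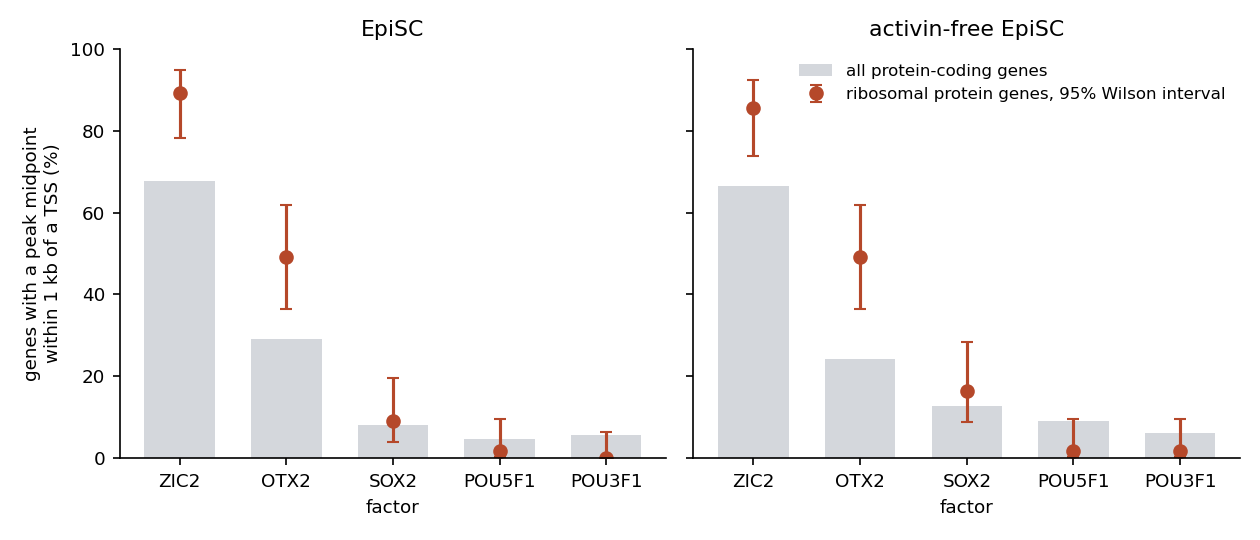
Share of genes with a peak midpoint within 1 kb of a TSS (vertical axis, %) for each TF (horizontal axis) in EpiSC and in the activin-free culture. Points are the 55 ribosomal protein genes with 95% Wilson intervals and bars are all 22367 protein-coding genes, and the points for ZIC2 (89.1% and 85.5%) and OTX2 (49.1% in both) lie above the bars.

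Within 5 kb of a TSS, the lists of EpiSC held 113 ZIC2 peaks, 124 OTX2 peaks, 11 SOX2 peaks, 8 POU5F1 peaks and 1 POU3F1 peak of these genes, and each of the 55 genes had a peak of at least 1 TF in at least 1 culture. ZIC2 and OTX2 each reached 51 of 55 genes at this distance in EpiSC (92.7%, 82.7 to 97.1%), compared with 76.1% and 60.3% of all genes. Without activin they reached 50 genes (90.9%; all genes 74.7%) and 47 genes (85.5%; all genes 57.0%). SOX2 reached 11 and 14 genes (20.0% and 25.5%), compared with 24.5% and 32.5% of all genes in EpiSC and activin-free culture, respectively. POU5F1 reached 7 and 11 genes (12.7% and 20.0%), compared with 21.2% and 34.8%. POU3F1 reached 1 and 2 genes (1.82% and 3.64%), compared with 17.4% and 18.6%. The share over all genes lay above the interval for POU3F1 in both cultures and for POU5F1 in the activin-free culture (11.6 to 32.4%), but inside it for POU5F1 in EpiSC (6.30 to 24.0%). The share over all genes was lower among genes in the highest of 3 classes for both neighbors within 100 kb and promoter CpG. There POU3F1 reached 2.45% and 6.67% and POU5F1 9.23% and 16.9% in EpiSC and activin-free culture, respectively. Of the 55 genes, 12 were in this class, with POU3F1 peaks at 0 and 1 of them and POU5F1 peaks at none. The part of gene density or CpG in the low POU shares was not tested.

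ZIC2 peaks covered the start itself more often than OTX2 peaks did. With 1 TSS per gene, that of the protein-coding transcript with the longest coding sequence, a ZIC2 peak covered the TSS of 45 genes in EpiSC (81.8%; all genes 61.6%) and of 42 in the activin-free culture (76.4%; all genes 59.7%). An OTX2 peak covered it in 11 and 10 genes (20.0% and 18.2%), compared with 9.00% and 8.79% of all genes. SOX2 covered the TSS of 1 and 5 genes (all genes 1.39% and 4.92%), POU5F1 of 1 and 0 genes (0.769% and 1.86%) and POU3F1 of 0 and 1 gene (1.60% and 2.94%). Measured from this TSS, ZIC2 peaks within 5 kb had a median signed distance of 69.8 bp downstream in EpiSC, with upstream distances counted as negative. Without the sign, the median distance was 1100 bp (all genes 1210 bp). Of 98 ZIC2 peaks, 42.9% were within 500 bp (all genes 37.7%) and 46.9% were more than 1500 bp away (all genes 46.3%). OTX2 peaks had a median signed distance of 1310 bp downstream and a median distance without the sign of 2280 bp (all genes 2140 bp). Of 102 OTX2 peaks, 9.80% were within 500 bp (all genes 9.73%) and 70.6% were more than 1500 bp away (all genes 63.8%). Around all protein-coding genes, the signed median of OTX2 peaks was 182 bp on the upstream side (-182 bp). The corresponding signed OTX2 medians in the activin-free culture were 789 bp for the ribosomal protein genes and -218 bp for all genes.

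The share for OTX2 depended on the TSSs counted. These genes had 253 annotated TSSs with a median of 4 per gene, compared with 2 over all genes, and some of the annotated transcripts start within the gene. With 1 TSS per gene, OTX2 shares were 36.4% in EpiSC and 34.5% in the activin-free culture, beside 21.0% and 16.2% of all genes. From the RefSeq start of the 45 genes that could be placed, the OTX2 shares were 31.1% (14 genes) and 26.7% (12 genes), whereas ZIC2 was at 39 of 45 genes in both cultures (86.7%). Shares over all genes from RefSeq starts were not computed. Annotated starts of other genes lay within 1 kb of 9 of the 55 genes (16.4%; all genes 10.2%), and peaks there can belong to either gene.

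The plot along the genes shows a second difference between the TFs. Over the body of a gene, from 500 bp after the TSS to the end of its main transcript, OTX2 peaks covered 30.2% of all bases of the ribosomal protein genes in EpiSC and 25.4% in the activin-free culture. Over all 21884 protein-coding genes with a body these values were 5.30% and 7.02%, and over the 4644 of them with spans between 1629 and 7188 bp, the 5th and 95th percentiles of the ribosomal protein genes, they were 7.45% and 7.30%. ZIC2 peaks covered 16.0% and 10.7% of body bases in ribosomal protein genes, compared with 26.4% and 21.4% in the genes of like span and 7.51% and 6.05% in all genes. Along the span, OTX2 cover in EpiSC fell to 9.09% of genes shortly after the start and was highest, at 41.8% of genes, at 82.5% of the span and, at 45.5%, 1120 bp beyond the end. The highest values in the activin-free culture were 40.0% at 67.5% of the span and 32.7% at 875 bp beyond the end. In the genes of like span, the share of genes covered by OTX2 did not exceed 8.79% at any step within the gene in EpiSC and 8.46% in the activin-free culture.

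**Figure D2:**
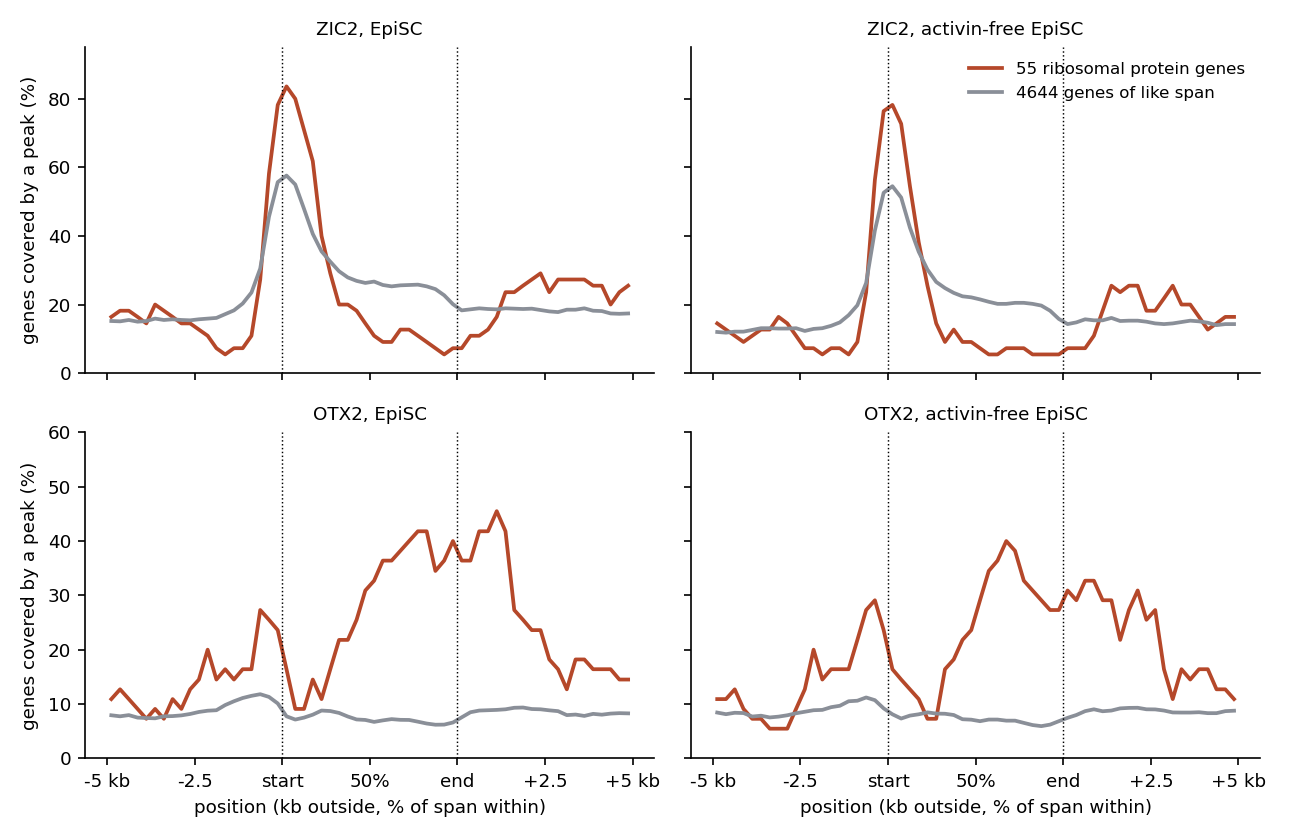
Share of genes covered by a ZIC2 (upper) or OTX2 (lower) peak (vertical axis, %) at steps of 250 bp over 5 kb on either side and 20 steps between the start and end of the main transcript (horizontal axis). Red lines are the 55 ribosomal protein genes and grey lines the 4644 genes of like span. The red ZIC2 line is highest at the start (83.6% of genes in EpiSC) and the red OTX2 line in the later gene body and beyond its end (up to 45.5%).

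At least 1 OTX2 peak overlapped the body of 34 genes in EpiSC (61.8%, 48.6 to 73.5%), compared with 56.7% of all genes and 26.4% of genes of like span, and of 29 genes in the activin-free culture (52.7%), compared with 54.2% and 23.2%. Bodies covered by OTX2 over 50% or more of their length were found for 15 genes in EpiSC (27.3%), compared with 1.53% of all genes and 3.55% of genes of like span. Without activin there were 13 such genes (23.6%), compared with 1.70% and 4.18%. ZIC2 peaks overlapped the bodies of 36 genes in EpiSC (65.5%), compared with 72.3% of all genes and 64.1% of genes of like span. In the activin-free culture they overlapped 29 bodies (52.7%), compared with 69.2% and 59.6%. ZIC2 peaks covered 50% or more of 5 bodies in EpiSC (9.09%), compared with 11.6% of all genes and 25.6% of genes of like span. In the activin-free culture they covered 3 bodies to this extent (5.45%), compared with 8.13% and 18.9%. SOX2, POU5F1 and POU3F1 peaks covered 50% or more of no body in either culture. The shares over all genes were also low, at 0.224%, 0.210% and 0.891% in EpiSC and 0.347%, 0.768% and 1.01% in the activin-free culture. The 10 genes with bodies mostly covered by OTX2 in both cultures were Rpl3, Rpl4, Rpl27, Rpl34, Rpl37, Rps9, Rps12, Rps20, Rps21 and Rps24. They were named after their values had been seen, and belong to both subunits.

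**Figure D3:**
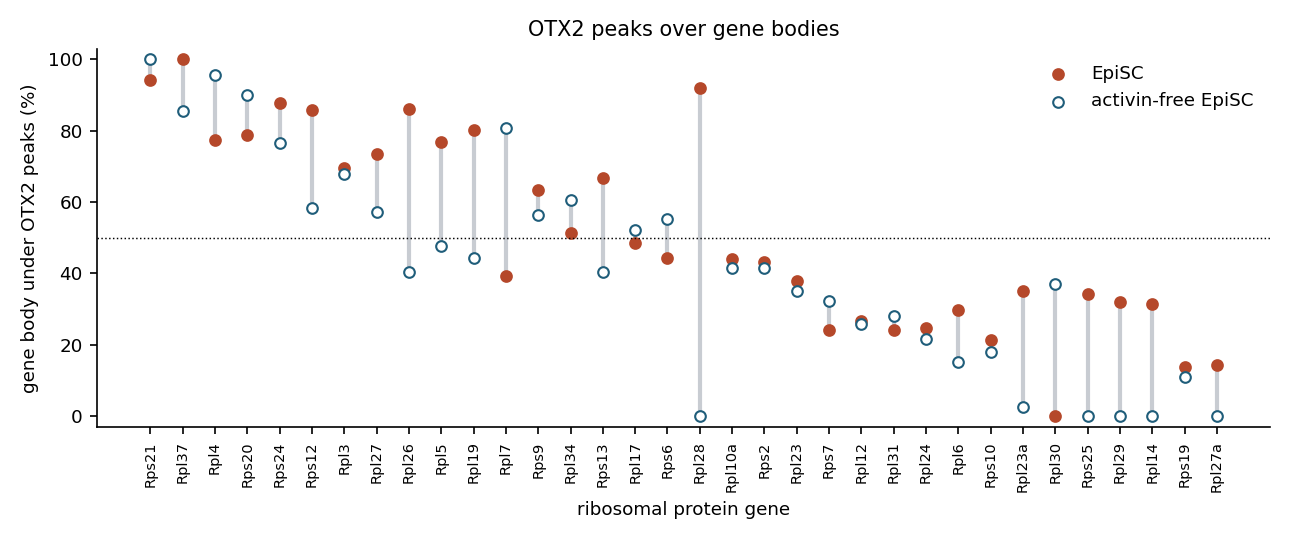
Share of the gene body under OTX2 peaks (vertical axis, %) for each ribosomal protein gene with a value above 0 (horizontal axis), with filled points for EpiSC and open points for the activin-free culture. The dotted line marks 50%, which 15 genes reached in EpiSC and 13 in the activin-free culture, 10 of them in both.

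The strongest examples were single wide peaks. Rpl4, for a protein with a loop that lines the exit tunnel of the large subunit (ENSMUSG00000032399.7, chromosome 9, 64021194 to 64026369), had an OTX2 peak between 64023446 and 64027829 (4384 bp, score 1879.52) in EpiSC, and a wider one (5251 bp, score 1445.9) in the activin-free culture. Its midpoint lay in an intron, and at the promoter of Rpl4 no ZIC2 peak was listed in EpiSC and one with a score of 55.65 in the activin-free culture. Rpl5, which binds 5S ribosomal RNA (ENSMUSG00000058558.6, chromosome 5, 108329521 to 108338024), had an OTX2 peak between 108333050 and 108338105 (5056 bp, score 1559.46) in EpiSC, which was narrower and scored higher in the activin-free culture (4135 bp, score 2005.91). These peaks began more than 3 kb after the promoter of Rpl5 shown above, whereas ZIC2 peaks with scores of 443.14 and 527.26 covered that promoter. Because transcripts of Rpl5 are also annotated to start inside the gene, the wide OTX2 peaks counted as promoter peaks.

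Wide OTX2 peaks over small subunit genes were similar. Rps20 had peaks of 3016 bp (score 1042.54) and 3489 bp (1546.64) centered in an exon in EpiSC and activin-free culture, respectively, next to ZIC2 peaks on its start with scores of 913.29 and 1643.21. Rps24, a gene mutated in Diamond-Blackfan anemia, had an OTX2 peak of 4673 bp (769.6) in EpiSC, but in the activin-free culture its widest listed peaks were 1458 bp (191.29) and 1454 bp (104.7). Its body was nevertheless mostly covered in both cultures, to 87.9% in EpiSC and 76.5% in the activin-free culture. Over Rps12, an OTX2 peak of 3789 bp (362.36) extended downstream from within the gene in EpiSC and a peak of 2525 bp (502.74) covered the start and the region upstream. Among the large subunit genes, Rpl37 had OTX2 peaks of 3614 bp (957.83) and 3172 bp (1311.49). The OTX2 peaks of Rpl4, Rpl5, Rps20 and Rpl37 in EpiSC ranked at or above the 99.7th percentile of scores in the list.

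Rpl28 showed the largest difference in body cover between the cultures, with 92.0% under OTX2 peaks in EpiSC and 0% in the activin-free culture. Rpl7 had the largest difference in the other direction, with 39.4% in EpiSC and 80.8% in the activin-free culture. No OTX2 peak overlapped the bodies of 21 genes in EpiSC and of 26 genes in the activin-free culture, among them Rps3, Rps14, Rps23, Rps27 and Rpl7a in both.

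Host genes of snoRNAs were examined because the bodies of several genes with wide OTX2 peaks contain them. Of the 55 genes, 22 (hosts) had at least 1 annotated snoRNA gene on the same strand between the ends of the main transcript. Bodies were mostly covered by OTX2 in 7 of these 22 genes in EpiSC (31.8%, 16.4 to 52.7%) and in 8 of the other 33 (24.2%, 12.8 to 41.0%). Without activin these numbers were 6 of 22 (27.3%) and 7 of 33 (21.2%). Among other genes of like span, OTX2 covered most of the body of 12 of 32 snoRNA hosts (37.5%, 22.9 to 54.7%) in EpiSC and of 7 (21.9%) in the activin-free culture, compared with 3.07% and 3.84% of 4563 genes without a snoRNA. Cytosolic ribosomal protein genes outside the 55 were not taken out of these groups. OTX2 covered most of the body of 7 of 26 such genes in each culture. Their part in the counts of hosts was not determined. Of the 44 snoRNA genes within the ribosomal protein genes, 14 lay under an OTX2 peak in EpiSC and 15 in the activin-free culture, and 10 and 8 lay under a ZIC2 peak. The share over all 1552 annotated snoRNA genes was not computed. Of all body bases of the ribosomal protein genes, OTX2 peaks covered 30.2% and 25.4% in EpiSC and activin-free culture, and ZIC2 peaks 16.0% and 10.7%. All 5 snoRNAs of Rpl4 lay under the OTX2 peaks of the activin-free culture, whereas the 4 of Rpl7a and the 4 of Rpl13a lay under no OTX2 peak in either culture.

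At the promoters, ZIC2 peaks were present but had lower scores than at the promoters of all genes. Within the whole ZIC2 list, the median rank of these promoter peaks was the 63.3 percentile in EpiSC and the 56.9 percentile in the activin-free culture. The ranks for promoter peaks of all genes were 77.6 and 75.3. The highest ZIC2 score within 1 kb had a median of 309 over the 49 genes with a peak in EpiSC, with quartiles of 167 and 670, compared with a median of 656 over all genes with a ZIC2 peak. Without activin the medians were 309 (47 genes) and 804. The median width of these peaks was 1190 bp in EpiSC (all genes 1470 bp) and 1030 bp in the activin-free culture (all genes 1360 bp). The medians for OTX2 were 124 over 27 genes and 119 over all genes in EpiSC, and 94.5 and 139 in the activin-free culture. After Rpl5, the highest OTX2 scores within 1 kb of a TSS were those of Rpl35 (320.17) and Rps2 (316.92) in EpiSC and of Rps9 (275.36) and Rpl9 (236.63) in the activin-free culture.

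The promoters of ribosomal protein genes were rich in CpG. From 250 bases before to 50 bases after the single TSS of each gene, the ratio of observed to expected CpG had a median of 0.872, compared with 0.546 over all protein-coding genes, at similar GC contents of 56.7% and 55.7%. This TSS was within 100 bp of the RefSeq start in 36 of 44 genes with both, so some windows lay off the RefSeq promoter. Peaks were still counted around all TSSs. When all genes were divided into 3 classes of equal size by this ratio, at 0.308 and 0.744, 36 ribosomal protein genes fell in the high class, 18 in the middle and 1 in the low class. The gene of the low class, Rps10, had its RefSeq start 1385 bp from the TSS used. That distance was 7486 bp for Rpl13a and 1417 bp for Rpl22 in the middle class, and 7529 bp for Rpl24 in the high class. In the high class, ZIC2 peaks were at 30 of 36 ribosomal protein genes in EpiSC (83.3%, 68.1 to 92.1%) and 28 in the activin-free culture (77.8%, 61.9 to 88.3%), below the 94.6% of all genes of this class in both cultures. In the middle class, all 18 ribosomal protein genes had a ZIC2 peak in both cultures, compared with 74.1% and 73.6% of all genes. The higher share of ZIC2 peaks than over all genes was therefore not seen in the class with the most CpG, and the median score there was 265 in EpiSC, compared with 739. For OTX2, 16 of 36 genes of the high class had a peak in each culture (44.4%, 29.5 to 60.4%), compared with 41.0% of all genes of this class in EpiSC and 33.1% in the activin-free culture. In the middle class 10 and 11 of 18 genes had one (55.6%, 33.7 to 75.4%, and 61.1%, 38.6 to 79.7%), compared with 32.3% and 26.3% of all genes of this class.

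**Figure D4:**
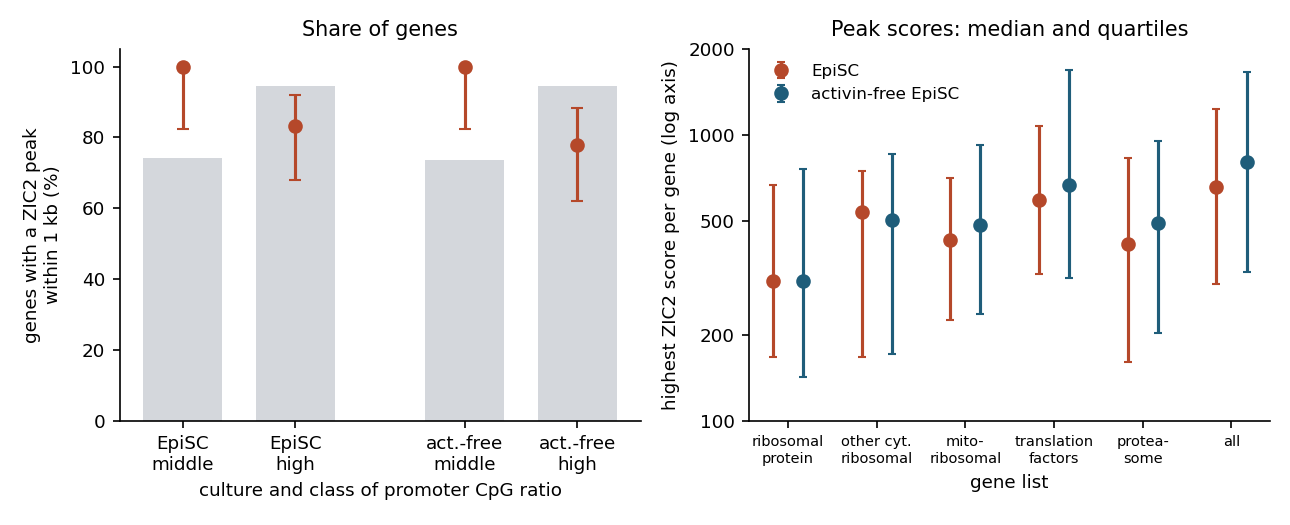
Left, share of genes with a ZIC2 peak within 1 kb (vertical axis, %) in the middle and high classes of the promoter CpG ratio, with points and 95% Wilson intervals for ribosomal protein genes and bars for all genes of the class. Right, median and quartiles of the highest ZIC2 score per gene (log axis) for 6 lists of genes, where the medians of the ribosomal protein genes (309 in both cultures) are the lowest of the lists and those of all protein-coding genes 656 and 804.

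Keeping the 50000 highest-scoring peaks of each list lowered the ZIC2 share to 61.8% in EpiSC (all genes 54.9%) and to 50.9% in the activin-free culture, below the 54.8% of all genes. With a score of at least 100, ZIC2 shares were 81.8% and 74.5%, beside 63.5% and 62.7% of all genes.

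The highest ZIC2 score within 1 kb of a TSS was that of Rpl10a, which encodes the protein of the L1 stalk (ENSMUSG00000037805.8, chromosome 17, 28465416 to 28467977). Its ZIC2 peak from 28463764 to 28466813 covered the promoter shown above (3050 bp, score 2473.52), and its counterpart in the activin-free culture was almost as wide (3047 bp, score 3100). Rpl24, which is mutated in the Belly spot and tail mouse, had ZIC2 scores of 1459.3 and 1784.6 at TSSs inside its long annotated locus on chromosome 16. The RefSeq start of Rpl24 lies 7529 bp upstream of the single TSS used here, and at that start a ZIC2 peak with a score of 52.16 and a SOX2 peak with a score of 76.93 were listed, both in the activin-free culture. Rpl7 had ZIC2 scores of 1446.61 and 1628.06, and within 1 kb no ribosomal protein gene other than Rpl10a, Rpl24 and Rpl7 had one above 1000 in EpiSC. Farther from the TSSs, the highest ZIC2 scores in EpiSC were 1776.19 at Rpl28, with the midpoint 3612 bp upstream (-3612 bp), and 1514.63 at Rpl13a, 1159.5 bp downstream.

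**Figure D5:**
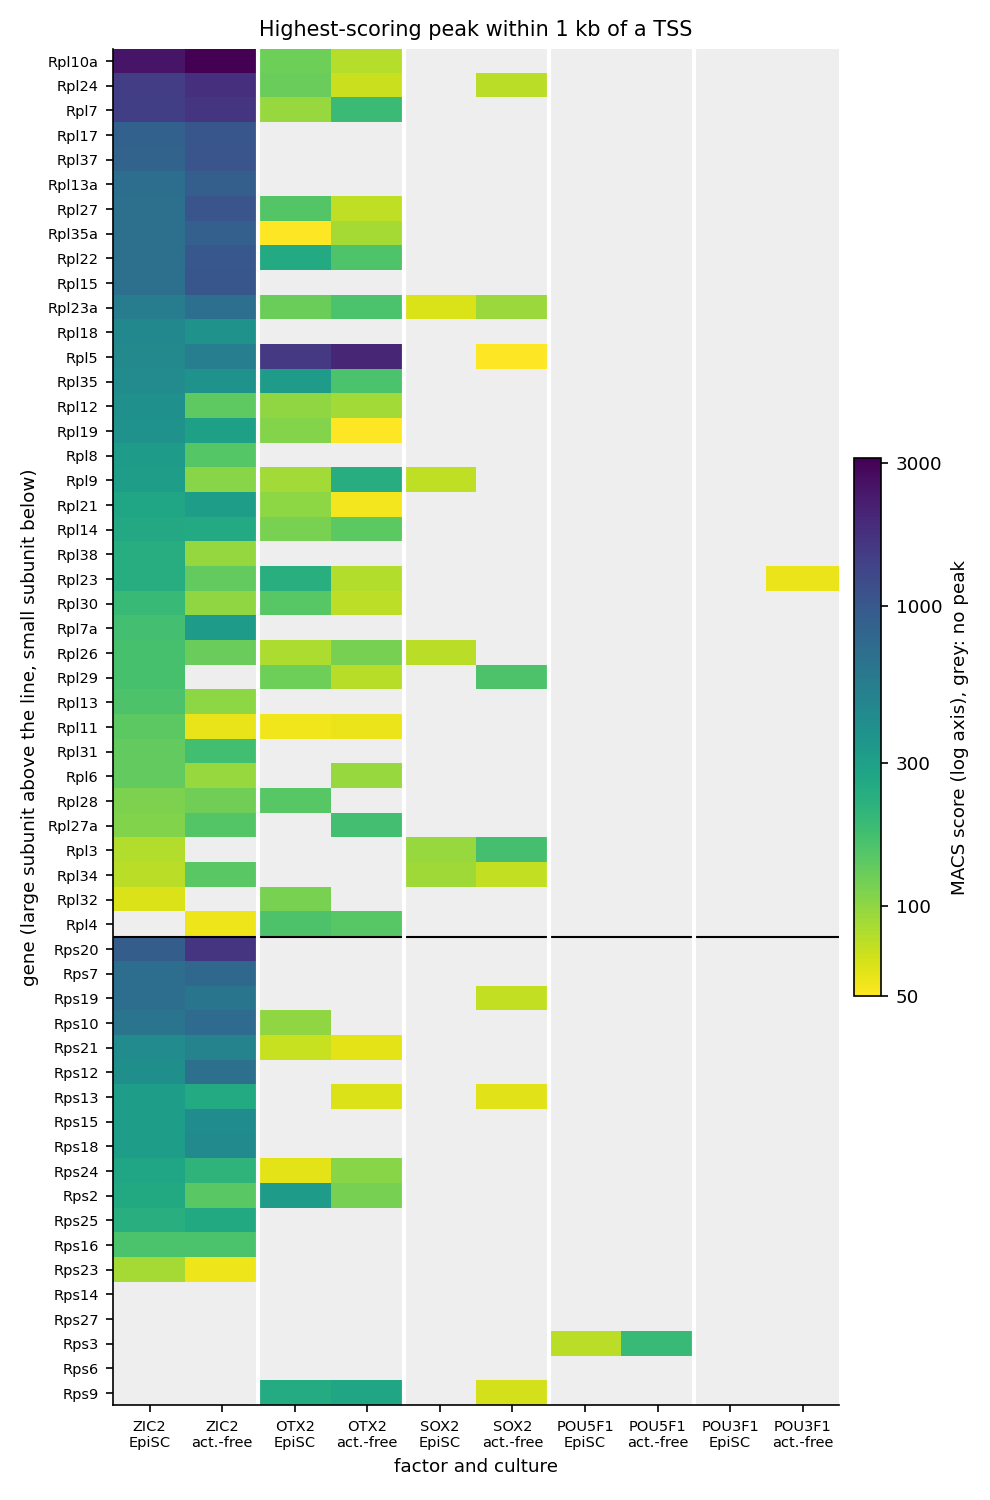
Highest score of a peak within 1 kb of a TSS (color, log axis from 50 to 3100, grey where none was listed) for each of 55 ribosomal protein genes (rows, large subunit above the line, ordered by ZIC2 score in EpiSC) and each TF and culture (columns). ZIC2 fills its columns except for 5 small subunit genes without a peak in either culture and 4 genes with a peak in 1 culture, and POU5F1 and POU3F1 have 1 gene each.

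The genes of the subunits were also counted separately. ZIC2 peaks were at 35 of 36 large subunit genes in EpiSC (97.2%, 85.8 to 99.5%) and at 14 of 19 small subunit genes (73.7%, 51.2 to 88.2%), and in the activin-free culture at 33 (91.7%) and 14 (73.7%). OTX2 peaks were at 22 large (61.1%, 44.9 to 75.2%) and 5 small subunit genes (26.3%, 11.8 to 48.8%) in both cultures. These intervals of OTX2 overlapped, as did those of ZIC2. The 5 genes without a ZIC2 peak within 1 kb in either culture were Rps3, Rps6, Rps9, Rps14 and Rps27, all of the small subunit.

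These 5 genes differed in their other peaks. Rps6, the substrate of the ribosomal protein S6 kinases (ENSMUSG00000028495.8, chromosome 4, 86500564 to 86503316), had no peak of any TF within 1 kb, and OTX2 peaks of 1000 bp (score 430.89) and 1245 bp (517.03) centered in its introns in EpiSC and activin-free culture, respectively. Rps27 likewise had no peak within 1 kb and had OTX2 peaks only beyond its end, with scores of 211.4 and 77.65 in EpiSC and of 251.82 and 176.81 in the activin-free culture. Rps9 had OTX2 peaks across its start with scores of 172.75 and 275.36, and in the activin-free culture also a SOX2 peak with a score of 64.93. Rps3, for a protein at the mRNA entry of the small subunit (ENSMUSG00000030744.6, chromosome 7, 106626406 to 106632248), had POU5F1 peaks with scores of 77.07 in EpiSC (106632236 to 106633033) and 191.49 in the activin-free culture (106632392 to 106632968), and no peak of another TF within 5 kb. It was the only gene of the 55 with a POU5F1 peak within 1 kb. Rps14 had no peak of any TF within 1 kb.

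SOX2 peaks within 1 kb had a median score of 76.8 in EpiSC (all genes 84.4) and of 73.5 in the activin-free culture (all genes 87.5). In EpiSC, they were at Rpl3 (94.22), Rpl34 (89.94), Rpl26 (76.8), Rpl9 (74.76) and Rpl23a (63.58), and none of these 5 reached 100. Farther away, SOX2 peaks were listed at Rpl31 (120.25 and 156.18) and Rps19 (183.52 and 280.32) in EpiSC and activin-free culture, respectively. In the activin-free culture the highest scores were 169.35 at Rpl3, for a protein close to the peptidyl transferase center, and 157.63 at Rpl29. The others were Rpl23a (92.72), Rpl24 (76.93), Rpl34 (73.19), Rps19 (72.8), Rps9 (64.93), Rps13 (60.19) and Rpl5 (50.32). The only POU3F1 peak within 1 kb was at Rpl23 in the activin-free culture, with a score of 56.09.

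Peaks of 3 TFs within 1 kb were listed for Rpl9, Rpl26 and Rpl23a in EpiSC and for Rpl5, Rps13, Rpl23a, Rpl23 and Rpl24 in the activin-free culture. These are 5.45% and 9.09% of the genes, compared with 5.33% and 6.88% of all genes with exactly 3 TFs. None of the ribosomal protein genes had peaks of 4 or 5 TFs. Over all genes, 1.04% and 1.87% had peaks of 4 TFs in EpiSC and activin-free culture, respectively, and 0.322% and 0.675% had peaks of 5. Rpl23a, whose protein lies at the exit of the tunnel, had ZIC2 (545.18 and 682.31), OTX2 (127.13 and 160.93) and SOX2 (63.58 and 92.72) peaks in both. Both ZIC2 and OTX2 were within 1 kb of 25 genes in each culture (45.5%), compared with 25.7% of all genes in EpiSC and 20.5% in the activin-free culture. Of the 37 OTX2 peaks within 1 kb in EpiSC, 19 overlapped a ZIC2 peak (51.4%, 35.9 to 66.6%), compared with 62.7% of OTX2 promoter peaks of all genes. Without activin 16 of 31 did (51.6%; all genes 55.5%).

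The genes with a peak were compared between the cultures. A ZIC2 peak within 1 kb was found in both cultures at 46 genes, which are 93.9% of those with one in EpiSC and 97.9% of those with one in the activin-free culture, close to the 95.7% and 97.2% over all genes. Rpl3, Rpl29 and Rpl32 had one only in EpiSC, with scores of 80.97, 165.74 and 62.11, and Rpl4 only in the activin-free culture. OTX2 peaks were found in both cultures at 24 genes, 88.9% of the 27 in each, compared with 70.1% of all genes with an OTX2 peak in EpiSC and 84.4% of those with one in the activin-free culture. Rpl28, Rpl32 and Rps10 were listed only in EpiSC, and Rpl6, Rpl27a and Rps13 only in the activin-free culture. For SOX2, 3 genes were shared (Rpl3, Rpl23a and Rpl34), 2 were in EpiSC only and 6 in the activin-free culture only. The shared genes are 3 of 5 in EpiSC and 3 of 9 in the activin-free culture, compared with 70.7% and 44.4% over all genes. The SOX2 list itself held 63751 peaks in EpiSC and 87907 in the activin-free culture, and the part of this in the difference was not tested.

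Overlap of the peaks themselves was counted as well. Of 60 ZIC2 promoter peaks in EpiSC, 54 overlapped a ZIC2 peak of the activin-free culture (90.0%, 79.9 to 95.3%), compared with 91.0% of ZIC2 promoter peaks of all genes. For OTX2, 28 of 37 did (75.7%, 59.9 to 86.6%; all genes 70.3%), and with a score of at least 100 in both lists 9 of 22 (40.9%). For SOX2, 2 of 5 overlapped (40.0%, 11.8 to 76.9%; all genes 69.2%). At Rpl29, the ZIC2 peak on the first exon was listed in EpiSC alone and a SOX2 peak at the start in the activin-free culture alone, while an OTX2 peak at the same place was listed in both (124.08 and 77.67).

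The promoters of these genes were searched on both strands for short sequences bound by TFs, again from 250 bases before to 50 bases after the single TSS. CCGGAAG, bound by ETS factors such as GABPA, was present in 34.5% of the 55 promoters (23.4 to 47.7%) and 10.9% of all promoters. ATGGCG, bound by YY1, was in 27.3% (17.3 to 40.2%) and 11.1%. This was not particular to the 55 genes. At other cytosolic ribosomal protein, mitochondrial ribosomal protein, translation factor and proteasome subunit genes, the ETS shares were 34.6%, 37.7%, 34.1% and 34.4%. The YY1 shares there were 23.1%, 33.8%, 22.7% and 43.8%. Within the high CpG class, the ETS sequence was in 30.6% of ribosomal protein gene promoters (18.0 to 46.9%) and 21.1% of all. The YY1 sequence was in 27.8% (15.8 to 44.0%) and 19.4%, so the share over all promoters of the class lay inside both intervals. The SP1 sequence GGGCGG was in 49.1% and 44.5%, but within the high CpG class in 18 of 36 promoters and 76.4% of all. Of the sequences for the TFs studied, CCTGCTG for ZIC proteins was in 3.64% (1.00 to 12.3%) and 10.1%. GGATTA for OTX2 was in 3.64% (1.00 to 12.3%) and 6.78%. ACAAAG for SOX2 was in 10.9% (5.10 to 21.8%) and 17.2%, and for these 3 sequences the share over all promoters lay inside the interval. The octamer ATGCAAAT for POU factors was in none of the 55 promoters and in 1.73% of all. A match is not evidence of binding.

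A pyrimidine run of 8 or more bases overlapped the 10 bases on either side of the RefSeq start in 21 of the 45 genes that could be placed, and in 14.0% of all 32851 RefSeq promoters. Within 100 bp of the midpoint of the ZIC2 promoter peaks in EpiSC, CCTGCTG was found at 6 of 60 peaks (10.0%) and at 13.0% of ZIC2 promoter peaks of all genes. GGATTA was found at 8 of 37 OTX2 promoter peaks (21.6%) and at 19.4% of those of all genes.

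These shares were set beside those of related gene lists. ZIC2 peaks in EpiSC were within 1 kb of 88.5% of 26 other cytosolic ribosomal protein genes, 87.0% of 77 mitochondrial ribosomal protein genes, 97.7% of 44 translation factor genes and 93.8% of 32 proteasome subunit genes. OTX2 peaks were within 1 kb of 46.2%, 45.5% and 40.9% of the first 3 lists and of 16 of the 32 proteasome subunit genes. Without activin the OTX2 shares were 46.2%, 33.8%, 43.2% and 43.8% in the same order, and the ZIC2 shares 80.8%, 84.4%, 95.5% and 93.8%. The median ZIC2 scores of these lists were higher in EpiSC, at 539, 429, 590 and 415. Expression of these genes was not analysed here.

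Rpl41, the listed gene that the annotation lacked, was placed by its RefSeq promoter at chromosome 10, position 127986224. A ZIC2 peak with a score of 54.5 lay 128.5 bp from this start in EpiSC. In the activin-free culture no ZIC2 peak was listed within 1 kb of it, and a SOX2 peak with a score of 57.96 was. Rpl41 is not included in the counts above.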

How the data were processed

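Peak lists of 10 ChIP-seq libraries were used. Per the labels and the study's methods, the authors aligned the reads with Bowtie2 (build mm9), MACS called the peaks of each library with the input as reference, and the deposited score of each peak is the value MACS gives. The only input among the samples was from the EpiSC culture, and none was from the activin-free culture. No read counts were used, and no peak list of the input was analysed here. The listed start, end and score of each peak on chromosomes 1 to 19, X and Y were compared with GENCODE vM1 (NCBIM37, equal to mm9), which contained 55 of the 56 genes. Intervals are 95% Wilson intervals, and with 1 library per group no test was made. Overlap was counted from 1 bp. The steps that assign peaks to TSSs and that overlap peaks were checked on simulated peaks. The steps for gene bodies, snoRNAs, promoter sequences and RefSeq starts were not checked in this way.

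The gene list, comparison lists and measures were chosen with earlier results of these data known. The text names genes with peaks of 3 TFs, with the 3 highest scores per list, with SOX2 or POU peaks, or with a peak in 1 culture, and other genes were named after their values were seen. RefSeq starts, gene bodies, the limit of 50% cover, snoRNA hosts, pseudogenes and Rpl41 were added after the data were seen. Alternatives concerned score, number of peaks, distance, overlap and TSS set. Python 3.11.15, numpy 2.4.6, scipy 1.17.1 and matplotlib 3.10.9 were used.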

Additional observations from a re-analysis of the deposited data

How the results depend on the processing

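No paired analysis was possible because the labels give 1 library to each TF and culture. The lists have no depth, so a missing peak may be one under the score of 50. Of 86 alternative values of 14 results, 55 stayed within the 95% interval of the value in the text. With a score of at least 100, shares of genes within 1 kb moved to 32.7% (OTX2, EpiSC), 23.6% (OTX2, activin-free), 3.64% (SOX2, activin-free) and 0% (SOX2 and POU5F1, EpiSC; POU3F1, activin-free). With the 50000 highest-scoring peaks they moved to 61.8% and 30.9% for ZIC2 and OTX2 in EpiSC, and to 50.9%, 18.2%, 5.45%, 0% and 0% for ZIC2, OTX2, SOX2, POU5F1 and POU3F1 in the activin-free culture. Within 500 bp, OTX2 moved to 30.9% (EpiSC) and 25.5% (activin-free) and SOX2 in EpiSC to 3.64%, and within 2 kb OTX2 moved to 74.5% and 69.1%. For peaks that overlap a TSS, the shares were 34.5% (OTX2, EpiSC), 30.9% (OTX2, activin-free), 3.64% (SOX2, EpiSC) and 0% (POU5F1, activin-free). With 1 TSS per gene they were 36.4% and 34.5% for OTX2 and 3.64% for SOX2 in EpiSC, and with TSSs of protein-coding transcripts 34.5% for OTX2 in the activin-free culture and 3.64% for SOX2 in EpiSC. From RefSeq starts, an alternative chosen after seeing the data, OTX2 had 31.1% and 26.7% and SOX2 in EpiSC 2.22%. Under these alternatives OTX2 stayed above the share of all genes measured in the same way where that was computed. In the activin-free culture, however, that share came to lie inside the OTX2 interval with a score of at least 100 (15.6% in 14.4 to 36.3%) and with 50000 peaks (12.6% in 10.2 to 30.3%), and inside the ZIC2 interval with a score of at least 100 (62.7% in 61.7 to 84.2%). With 50000 peaks it lay inside the ZIC2 interval in both cultures (54.9% in 48.6 to 73.5% in EpiSC, 54.8% in 38.1 to 63.6% in the activin-free culture). ZIC2 fell below it with the 50000 highest-scoring peaks in the activin-free culture (50.9% against 54.8%). Sharing of OTX2 promoter peaks between cultures moved to 40.9% with a score of at least 100 in both lists. It could not be computed for POU3F1, or with that score for SOX2 and POU5F1, for lack of peaks in EpiSC.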

Other observations

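Other genes of the translation machinery also had bodies under OTX2 peaks. Of 26 other cytosolic ribosomal protein genes, 7 had bodies covered to 50% or more in each culture (26.9%), and 33.4% and 36.9% of their body bases were covered in EpiSC and activin-free culture, respectively. Of 44 translation factor genes, 7 were covered to this extent in EpiSC (15.9%) and 6 in the activin-free culture (13.6%). This was the case for 2 of 77 mitochondrial ribosomal protein genes (2.60%) and 0 of 32 proteasome subunit genes in both cultures. The median spans were 2410, 12900, 7120 and 13300 bp for the other cytosolic ribosomal protein, translation factor, mitochondrial ribosomal protein and proteasome subunit genes, respectively, compared with 3080 bp for the 55 ribosomal protein genes.

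Pseudogenes of ribosomal protein genes had few peaks. Of 98 named pseudogenes, 10 had a ZIC2 peak within 1 kb of the start in EpiSC (10.2%, 5.64 to 17.8%), compared with 10.0% of 5201 pseudogenes in all, and 5 had an OTX2 peak (5.10%; all pseudogenes 5.10%). In the activin-free culture the numbers were 8 (8.16%; all pseudogenes 9.11%) and 5 (5.10%; all pseudogenes 5.86%). How reads from nearly identical copies were mapped is not given in the sources used here.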
